A study of Mus musculus with 9 samples.

Results

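The immunoglobulin heavy chain variable (Ighv) segments are the gene pieces that encode most of the antigen-binding domain of the antibody heavy chain. They were taken as the rows of the deposited gene table whose symbol begins with Ighv followed by a digit, which gave 183 of the table's 45777 genes. The deposited table classes 120 of them as V segments and 63 as V segment pseudogenes. Reads were counted on 117 of the 183 in at least 1 of 9 libraries, and 66 had none. The V segments with a read numbered 101 of 120 and the pseudogenes 16 of 63. A total of 38 segments had a read in all 9 libraries, and 14 had reads in a single library.

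A developing B cell joins 1 V segment to a D and a J segment to make the exon for its heavy chain variable domain, and its daughter cells inherit that choice. The mix of V segments in the RNA of a tissue therefore reflects which B cell and plasma cell clones it holds and how much antibody RNA each makes. The gut wall is rich in plasma cells, which secrete mostly IgA and make far more heavy chain RNA per cell than resting B cells. In bulk tissue, fewer cells of a type and less RNA per cell cannot be told apart.

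The libraries were bulk RNA-seq of colon from wild-type mice, in 3 groups of 3. The CT group received a normal diet and no cast. The IM group received a normal diet and had the hindlimbs immobilised in a cast of plastic tubes and tape for 10 days, applied under anaesthesia. The IM-HYA group received a diet containing HYA, an abbreviation the labels leave unexplained, together with the cast. No group in the labels received HYA without a cast, and the labels give no age, sex or strain. The labels name separate samples but not separate animals, so the spread between libraries may be partly technical.

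The libraries held 19638401 to 42917198 counts, of which the Ighv segments took 35871 in all. Some libraries stood apart in the tissue they held. Genes of the pancreatic acinar list took 28.1% of the counts of CT 2 and 0.468% or less of every other library. The summed B cell marker level was 755 CPM (counts per 1000000, on library sizes scaled by edgeR's TMM method) in IM 3 and 23.7 to 109 in the others. Hoxd13, a posterior Hox gene, ran from 0 in IM 3 to 105 CPM in IM-HYA 3. Epithelial RNA was present in every library. Pigr, which carries IgA across the epithelium, measured 2224 to 4500 CPM, and the 8 genes of the colon epithelium list summed to 10082 to 22091 CPM. Whether these levels tell colon from other epithelium was not tested.

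The 182 segments on the minus strand and the 1 on the plus strand lie on chromosome 12 between positions 113572929 and 116009954 (GRCm38, 1-based), a stretch of 2437026 bases, and their median length is 294 bases. Many are near copies of each other. Over 16653 pairs of V exons, 18 pairs were at least 97% identical, and these involved 31 segments. The median identity of a segment to its nearest relative was 94.1%. Reads from such relatives can be placed on the wrong copy, and the sources used here do not give how shared reads were counted. The segments in those pairs held 17.4% to 32.0% of the Ighv counts of a library.

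The germline V exons that the results below turn on are shown here, 5′ to 3′, from the GENCODE transcripts of the same build. Those of Ighv1-18, Ighv1-26, Ighv1-39 and Ighv3-6 are cut to the RefSeq interval. Ighv1-18 (chr12:114682632-114682925) and Ighv1-26 (chr12:114788372-114788665), both on the minus strand, were the leading segments of 3 libraries between them and differ at 8 of 294 bases, which are in capitals.
Ighv1-18: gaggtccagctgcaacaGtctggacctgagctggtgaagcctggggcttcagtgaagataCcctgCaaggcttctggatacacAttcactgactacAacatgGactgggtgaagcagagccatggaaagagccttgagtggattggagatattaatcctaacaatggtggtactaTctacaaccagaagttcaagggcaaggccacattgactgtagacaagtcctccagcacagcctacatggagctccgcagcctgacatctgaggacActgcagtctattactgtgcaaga
Ighv1-26: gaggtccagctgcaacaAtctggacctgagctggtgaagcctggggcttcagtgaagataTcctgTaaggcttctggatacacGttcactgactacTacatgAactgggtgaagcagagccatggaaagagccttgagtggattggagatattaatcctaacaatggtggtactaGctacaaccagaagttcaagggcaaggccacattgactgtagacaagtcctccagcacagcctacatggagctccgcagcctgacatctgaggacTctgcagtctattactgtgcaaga
Counted from the 5′ end of the printed sequences and read from Ighv1-18 to Ighv1-26, the differences are G18A, C61T, C66T, A84G, A97T, G103A, T176G and A271T.

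Ighv10-1 (chr12:114479018-114479317, minus strand) led 2 of the IM libraries, and Ighv10-3 (chr12:114523454-114523753, minus strand) is its closest relative. The first 300 bases of each 313-base V exon are shown and differ at the 9 positions in capitals, while the whole exons differ by 10 edits.
Ighv10-1: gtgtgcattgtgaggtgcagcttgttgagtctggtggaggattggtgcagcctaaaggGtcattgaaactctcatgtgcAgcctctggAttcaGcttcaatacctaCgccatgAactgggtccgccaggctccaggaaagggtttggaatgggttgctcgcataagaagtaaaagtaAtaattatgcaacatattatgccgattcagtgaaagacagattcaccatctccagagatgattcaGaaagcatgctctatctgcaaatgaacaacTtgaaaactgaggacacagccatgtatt
Ighv10-3: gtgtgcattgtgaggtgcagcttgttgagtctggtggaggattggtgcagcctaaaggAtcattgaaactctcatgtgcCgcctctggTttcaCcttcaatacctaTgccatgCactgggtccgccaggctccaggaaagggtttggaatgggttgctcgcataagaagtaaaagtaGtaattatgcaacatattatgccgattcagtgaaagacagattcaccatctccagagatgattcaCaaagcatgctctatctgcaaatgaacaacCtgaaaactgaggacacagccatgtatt
Ighv1-39 (chr12:114914599-114914892, minus strand) led IM-HYA 3, and Ighv3-6 (chr12:114288152-114288447, minus strand) led CT 2.
Ighv1-39: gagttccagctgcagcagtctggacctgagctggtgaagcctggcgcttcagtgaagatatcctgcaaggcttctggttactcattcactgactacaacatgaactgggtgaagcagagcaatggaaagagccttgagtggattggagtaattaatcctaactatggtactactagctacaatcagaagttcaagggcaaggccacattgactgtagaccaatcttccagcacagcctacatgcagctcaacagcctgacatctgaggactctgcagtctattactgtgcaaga
Ighv3-6: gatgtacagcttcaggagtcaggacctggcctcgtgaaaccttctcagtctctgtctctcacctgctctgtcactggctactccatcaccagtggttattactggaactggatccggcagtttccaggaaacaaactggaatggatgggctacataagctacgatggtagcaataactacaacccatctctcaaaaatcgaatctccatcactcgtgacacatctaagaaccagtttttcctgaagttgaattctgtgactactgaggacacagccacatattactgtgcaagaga
Ighv1-39 was 92.8% identical to its nearest relative, Ighv1-42, and Ighv3-6 was 93.5% identical to Ighv3-1.

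Each library drew its Ighv reads from a broad set of segments. The number of segments with a read was 68, 76 and 73 in CT 1 to CT 3, 96, 76 and 63 in IM 1 to IM 3, and 95, 97 and 86 in IM-HYA 1 to IM-HYA 3. These numbers followed the depth, since the Ighv counts were 884, 2062 and 1666 in CT, 6379, 1947 and 884 in IM, and 5594, 12549 and 3906 in IM-HYA. After every library was thinned at random to 884 Ighv counts, the mean number of segments with a read was 68.0, 71.6 and 67.8 in CT, 79.1, 69.4 and 63.0 in IM, and 74.5, 72.8 and 71.6 in IM-HYA. The thinned libraries thus spanned 63.0 to 79.1 segments, and both ends of that range lay in the IM group.

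A small number of segments carried 50% of each library's Ighv counts. It was 13, 12 and 8 segments in CT, 10, 7 and 10 in IM, and 10, 10 and 6 in IM-HYA. The group means were 11 ± 2.65 in CT, 9.0 ± 1.73 in IM and 8.67 ± 2.31 in IM-HYA (SD, n = 3), and the groups overlapped. Reaching 90% of the counts took 43, 43 and 38 segments in CT, 44, 34 and 34 in IM, and 40, 39 and 37 in IM-HYA. The largest single segment held 10.6% ± 1.54 of the Ighv counts in CT, 13.3% ± 3.41 in IM and 12.0% ± 3.57 in IM-HYA (SD, n = 3). The differences between these group means were within the spread of single libraries, and 3 libraries against 3 cannot give a two-sided permutation p below 0.1.

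The leading segments differed from library to library, and 7 different segments ranked first in the 9 libraries. A total of 13 segments were ever among the first 3 of a library and 22 among the first 5. The CT libraries shared their leaders. Ighv1-26 held 9.95%, 6.26% and 12.4% of the Ighv counts of CT 1 to CT 3, and Ighv3-6 held 5.43%, 9.51% and 9.06%. These were the first and second segments in every CT library, in either order. The third place went to Ighv1-80 in CT 1 (4.64%) and CT 2 (6.06%), and to Ighv1-9 in CT 3 (8.40%).

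**Figure D1:**
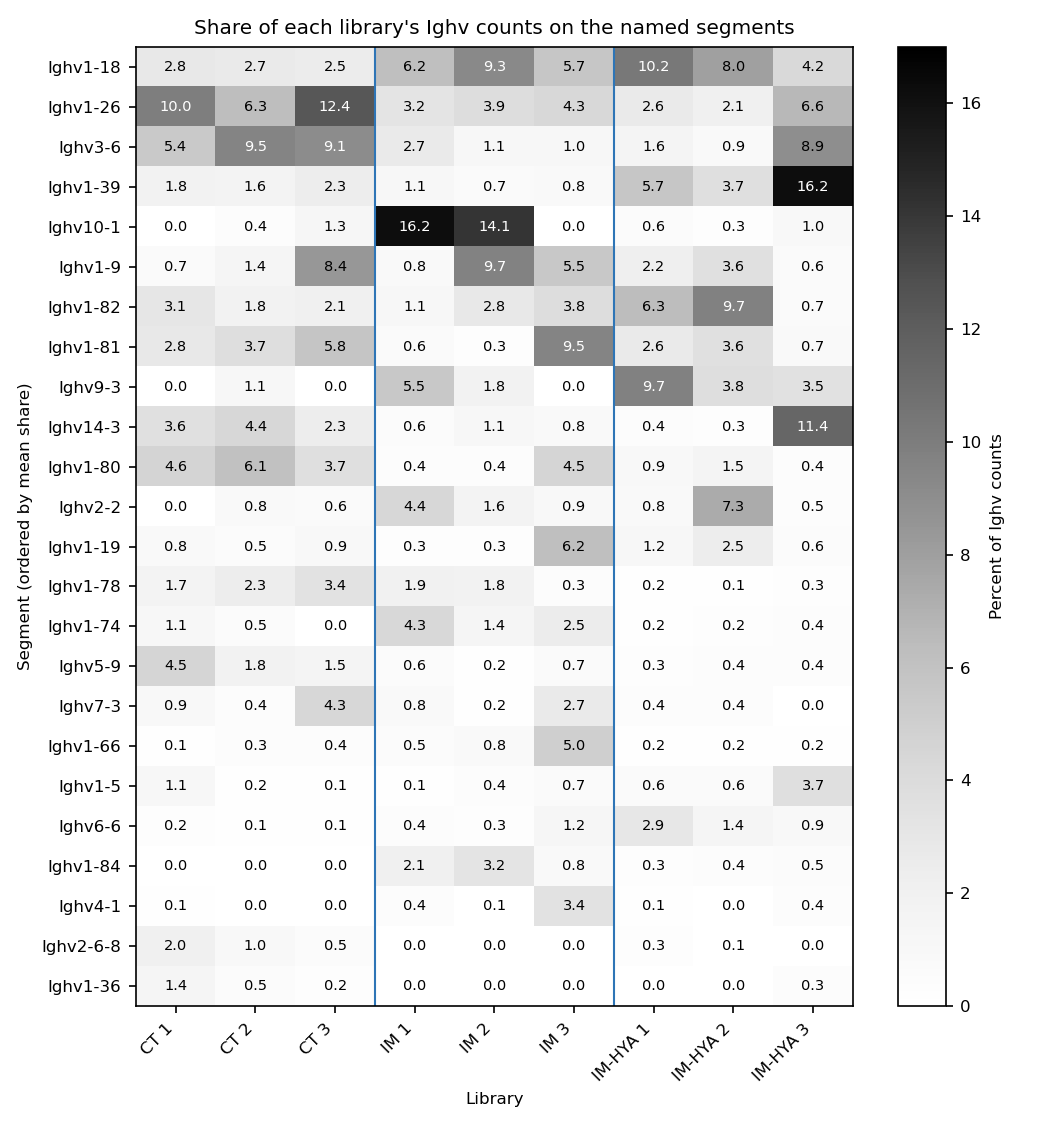
Share of each library's Ighv counts (percent, grey scale and printed value) on the 24 named segments, ordered by mean share, with 1 column per library and lines between the CT, IM and IM-HYA groups. Ighv1-26 and Ighv3-6 are dark across the CT columns, while Ighv10-1 reaches 16.2% and 14.1% in IM 1 and IM 2 and is at 0 in IM 3.

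In the IM group, 1 segment dominated 2 libraries and was missing from the third. Ighv10-1 held 1031 of 6379 Ighv counts in IM 1 (16.2%) and 275 of 1947 in IM 2 (14.1%), but 0 of 884 in IM 3, which allows a share of up to 0.339%. In CT it held 0, 0.436% and 1.26%, and in IM-HYA 0.590%, 0.327% and 0.973%. IM 3 was led instead by Ighv1-81 (9.50%), Ighv1-19 (6.22%) and Ighv1-18 (5.66%). Ighv1-19 held at most 2.45% elsewhere. Ighv1-9, second in IM 2 at 9.66%, was at 0.768% in IM 1 and 5.54% in IM 3.

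The IM-HYA libraries were likewise led by different segments. Ighv1-18 (10.2%) and Ighv9-3 (9.72%) led IM-HYA 1. Ighv1-82 (9.74%), Ighv1-18 (7.96%) and Ighv2-2 (7.32%) led IM-HYA 2. Ighv1-39 (16.2%), Ighv14-3 (11.4%) and Ighv3-6 (8.93%) led IM-HYA 3, and together they made 36.5% of its Ighv counts, the highest share for the first 3 segments in any library. Ighv14-3 was at 0.358% and 0.287% in the other two IM-HYA libraries, and Ighv3-6 at 1.56% and 0.861%. Ighv1-39 was higher in all 3 IM-HYA libraries (5.70%, 3.67% and 16.2%) than in CT (1.81%, 1.65% and 2.34%) and IM (1.14%, 0.719% and 0.792%). Ighv9-3 held 0, 1.07% and 0 in CT, 5.55%, 1.80% and 0 in IM, and 9.72%, 3.75% and 3.48% in IM-HYA, so IM 1 lay above IM-HYA 2 and IM-HYA 3.

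Segment families are defined by sequence similarity, and the number before the dash in a segment's name is its family. Ighv1, the largest family with 92 of the 183 segments (50.3%), held a mean of 65.3% of the Ighv counts. Its share was 64.4%, 61.3% and 68.3% in CT, 51.4%, 69.5% and 78.4% in IM, and 65.7%, 67.6% and 60.9% in IM-HYA. The group means were 64.7% ± 3.51, 66.4% ± 13.8 and 64.7% ± 3.42 (SD, n = 3), with the widest spread in IM. Ighv5 followed with a mean of 6.45%, Ighv3 with 6.31% and Ighv10 with 4.86%.

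The smaller families moved with single segments. Ighv3 held 7.35%, 11.5% and 9.66% in CT, 6.19%, 1.59% and 2.49% in IM, and 3.20%, 2.94% and 11.9% in IM-HYA. Ighv10, with 4 segments, reached 16.6% (IM 1) and 14.1% (IM 2), while the other 7 libraries held 3.58% or less. Ighv8 had 16 segments and a mean of only 1.27%, and the single Ighv16 segment had no read. Ighv13 had no read in CT, 0.110% in IM 1 alone among the IM libraries, and 0.644%, 0.869% and 0.384% in IM-HYA. Pseudogenes took 0.333% to 4.50% of the Ighv counts. The highest pseudogene was Ighv7-3, with 4.32% in CT 3 and 2.71% in IM 3. The deposited table classes Ighv7-3 as a pseudogene and GENCODE as a V gene.

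**Figure D2:**
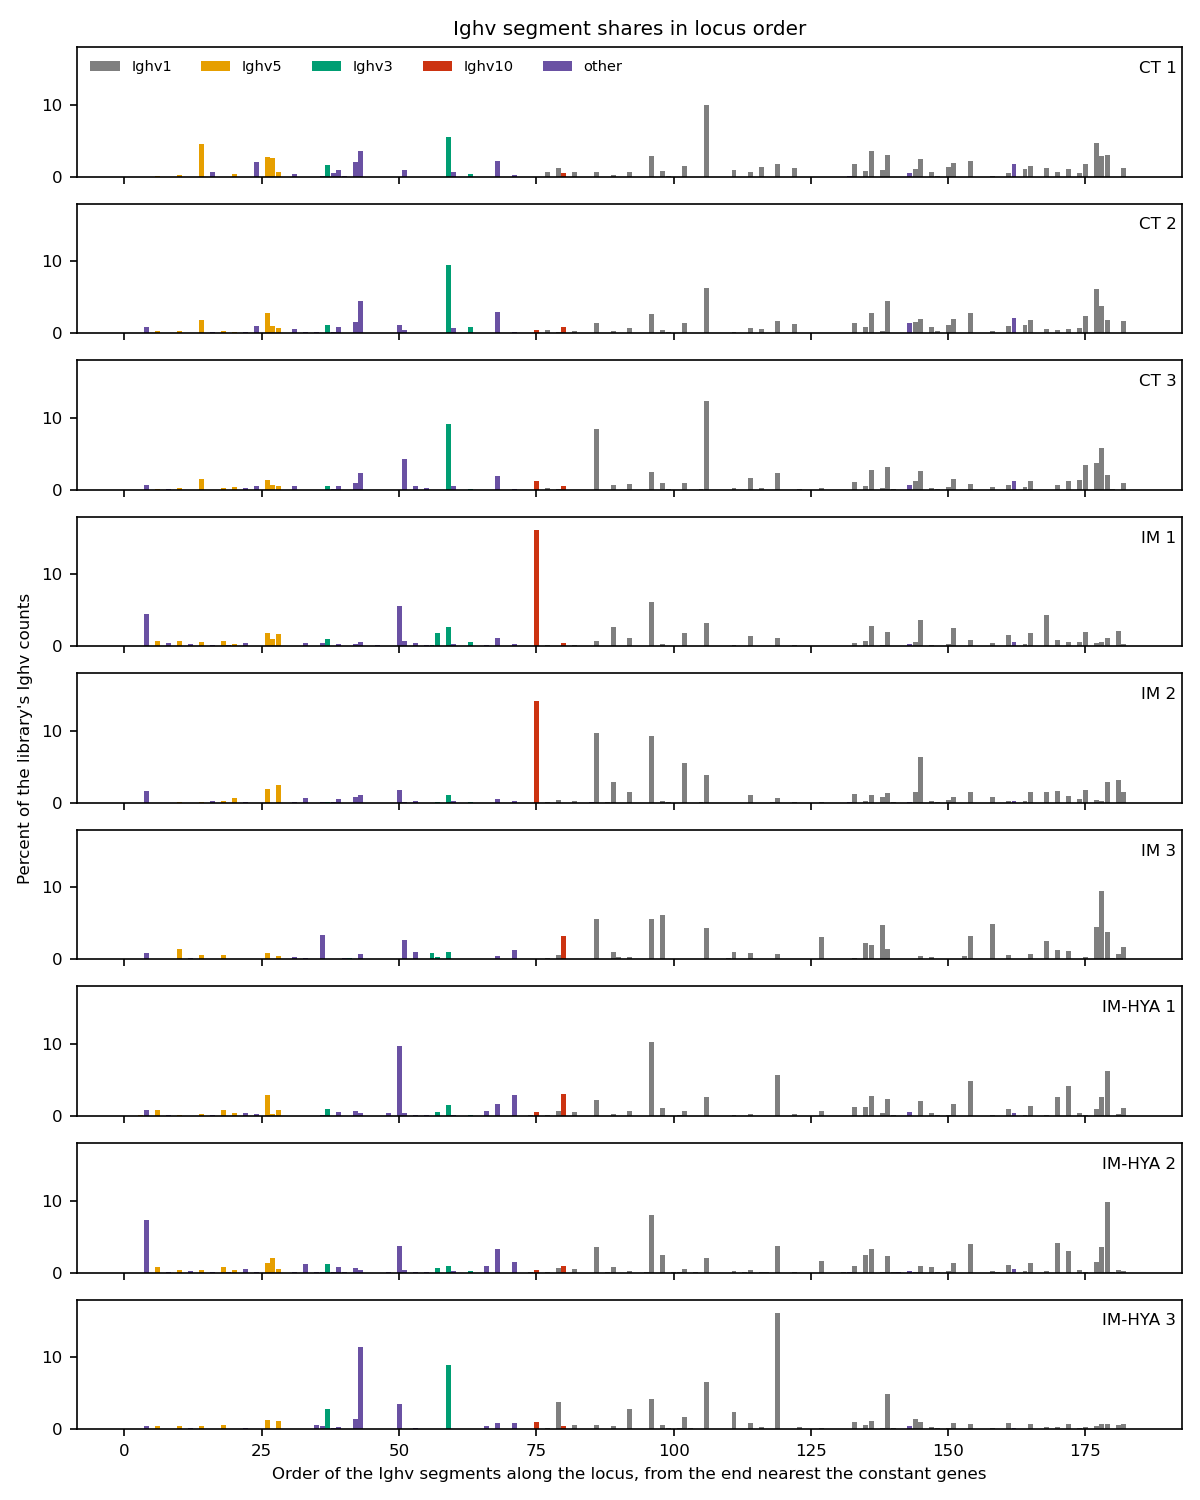
Share of each library's Ighv counts (percent, vertical axis) on each Ighv segment in their order along the locus (horizontal axis, from the end nearest the constant genes), 1 row per library, coloured by family. The Ighv1 segments (grey) fill the distal part in every row, and Ighv10-1 (red) stands alone at 16.2% and 14.1% in IM 1 and IM 2.

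The balance within the near-identical pair Ighv1-26 and Ighv1-18 differed between CT and the other libraries. Of the counts on the pair, Ighv1-26 took 77.9% (95% exact interval 69.1 to 85.1), 70.1% (62.9 to 76.6) and 83.4% (78.2 to 87.8) in CT 1 to CT 3. It took 34.1% (30.3 to 38.0), 29.3% (23.8 to 35.3) and 43.2% (32.7 to 54.2) in IM 1 to IM 3. It took 20.4% (17.5 to 23.5), 20.7% (18.4 to 23.0) and 60.9% (56.1 to 65.6) in IM-HYA 1 to IM-HYA 3. Every CT library lay above every other library. The pair's summed share was less variable, at 8.92% to 14.8% of the Ighv counts in CT, 9.39% to 13.1% in IM and 10.0% to 12.9% in IM-HYA. This ratio was chosen after its values were seen and was not tested, and the intervals cover counting error only.

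**Figure D3:**
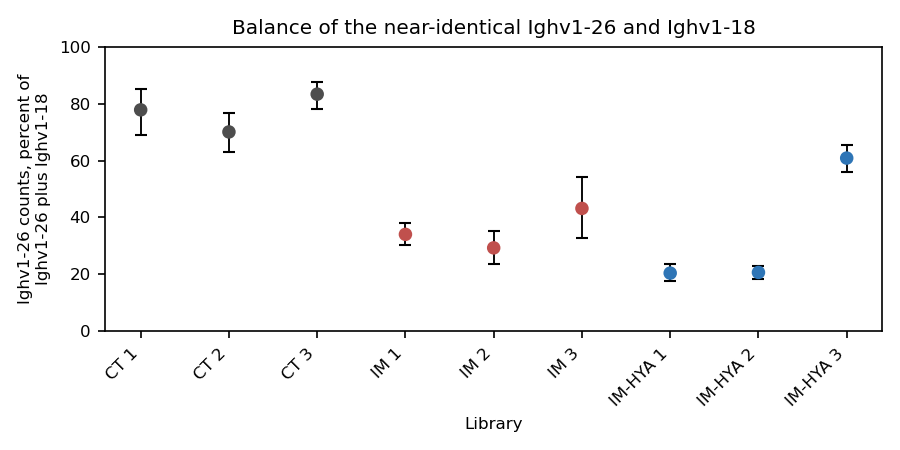
Percent of the counts on Ighv1-26 plus Ighv1-18 that fell on Ighv1-26, per library, with 95% exact binomial intervals. The 3 CT points sit between 70.1% and 83.4%, above all IM and IM-HYA points, of which IM-HYA 3 is the highest at 60.9%.

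The other pair shown above, Ighv10-1 and Ighv10-3, had no fixed balance. Ighv10-1 took 97.1% of the pair's counts in IM 1 and all 275 in IM 2, while in IM 3 all 29 fell on Ighv10-3. In IM-HYA 1 the 33 counts of Ighv10-1 were 16.5% of the pair, and in CT 3 its 21 counts were 70.0%.

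Libraries were compared by the overlap of their segment shares, the sum over segments of the smaller share of the pair, which is 100% for equal profiles. Same-group pairs overlapped by 39.4% to 79.3% (median 68.3%, 9 pairs), and pairs from different groups by 33.3% to 57.9% (median 49.3%, 27 pairs). The CT libraries were the most alike, at 70.0% to 79.3%, and shared 6 or 7 of their first 10 segments in each pair. IM 1 and IM 2 overlapped by 68.3%, and IM 3 by 39.4% and 43.3% with them. IM-HYA 1 and IM-HYA 2 overlapped by 74.2%, and IM-HYA 3 by 47.8% and 42.9% with them. The closest library was of the same group for 7 of 9, the exceptions being IM 3 (closest to IM-HYA 2, 51.7%) and IM-HYA 3 (closest to CT 2, 57.9%). The chi-square per degree of freedom, which sets the differences against read-counting error only, was 2.60 to 7.30 within CT and 12.4 or more in every other pair, so no pair looked like 1 library deposited more than once.

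**Figure D4:**
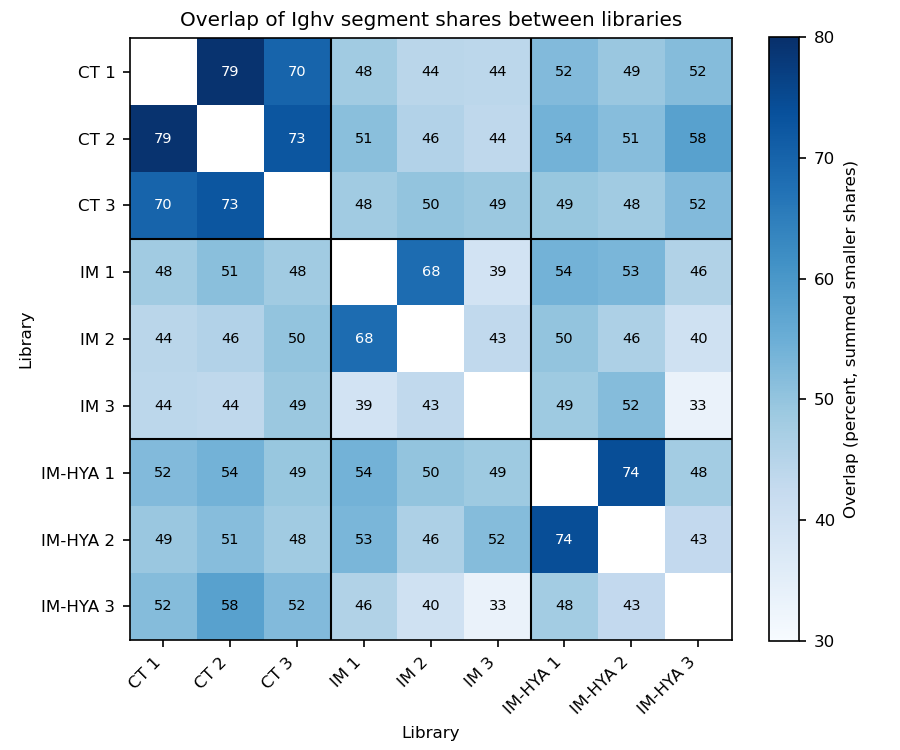
Overlap of Ighv segment shares between each pair of libraries (percent, colour and printed value), with lines between groups. The CT block is dark throughout (70.0% to 79.3%), and IM 1 with IM 2 (68.3%) and IM-HYA 1 with IM-HYA 2 (74.2%) are the other dark pairs.

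The amount of Ighv RNA varied within groups. The summed Ighv level was 20.8, 140 and 95.0 CPM in CT, 142, 60.5 and 41.1 in IM, and 112, 250 and 94.4 in IM-HYA. The group means were 85.4 ± 60.3, 81.1 ± 53.3 and 152 ± 85.4 CPM (SD, n = 3), and the groups overlapped. As a share of all counts, with no TMM scaling, the segments made 0.00234%, 0.00663% and 0.00848% in CT. They made 0.0179%, 0.00620% and 0.00399% in IM, and 0.0135%, 0.0292% and 0.0112% in IM-HYA. By this share every IM-HYA library lay above every CT library, so the overlap of CT and IM-HYA in CPM came with the scaling. The TMM factor was 0.473 in CT 2 and 0.893 to 1.26 in the other libraries.

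The Ighv counts were also set against the heavy chain constant genes, which encode the part of the chain that defines the antibody class. There were 2.31, 3.92 and 1.63 Ighv counts per 100 constant counts in CT, 16.3, 1.53 and 0.900 in IM, and 11.7, 7.45 and 11.1 in IM-HYA. The means were 2.62 ± 1.17, 6.25 ± 8.73 and 10.1 ± 2.30 (SD, n = 3). All IM-HYA libraries lay above all CT libraries, and the IM libraries lay on both sides, with IM 1 the highest of the 9. Without IM 1 the IM mean was 1.21. The J segments, which lie between the V and constant genes, also set IM-HYA above CT, at 0.444, 0.693 and 0.250 per 100 constant counts in CT, 1.77, 0.267 and 0.148 in IM, and 1.54, 1.11 and 1.36 in IM-HYA. The kappa light chain V segments, from another locus, measured 17.5, 19.2 and 9.99 per 100 Igkc counts in CT, 62.0, 8.36 and 7.20 in IM, and 43.8, 26.4 and 48.2 in IM-HYA.

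**Figure D5:**
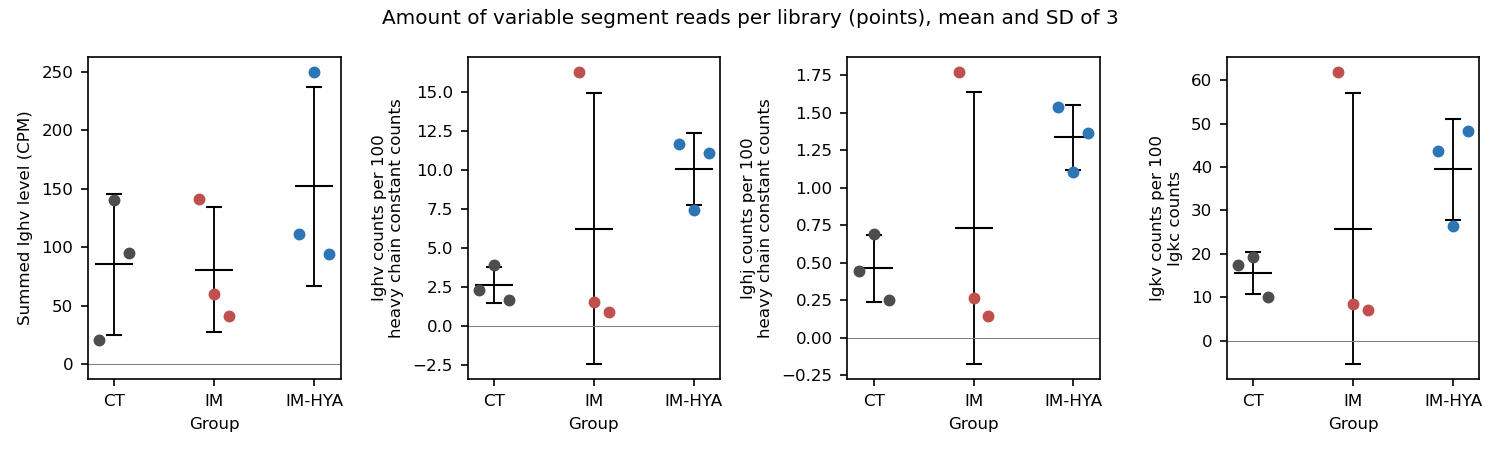
Summed Ighv level (CPM), Ighv and J segment counts per 100 heavy chain constant counts, and kappa V counts per 100 Igkc counts, per library (points) with the mean and SD of 3 per group. The IM-HYA points lie above the CT points in the 3 ratio panels and overlap them in the CPM panel, and IM 1 is the highest point of each ratio panel.

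The 18S ribosomal gene Rn18s-rs5 moved with these ratios. It took 5.42%, 8.76% and 23.2% of the counts in CT, 2.88%, 11.3% and 16.4% in IM, and 4.19%, 4.60% and 3.66% in IM-HYA, so the 4 libraries with the least of it were the 4 with the most Ighv per constant count. Its part in the ratio was not tested. Hoxd13 measured 104, 33.5 and 4.62 CPM in CT, 98.1, 0.591 and 0 in IM, and 96.0, 3.65 and 105 in IM-HYA. IM 1, IM-HYA 1 and IM-HYA 3, which had the most Ighv per constant count, all measured 96.0 CPM or more. So did CT 1, which had 2.31 Ighv counts per 100 constant counts, while IM-HYA 2 had 7.45 with Hoxd13 at 3.65. The part of Hoxd13 in the ratio was not tested either. The 14 listed Ighd segments, which are short, had 0 to 2 counts per library in all.

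The constant genes showed which antibody class dominated. Igha, the IgA constant gene, made 97.1%, 99.2% and 99.5% of heavy chain constant counts in CT, 79.9%, 99.5% and 77.0% in IM, and 97.1%, 98.1% and 97.5% in IM-HYA. In IM 1, Ighm (IgM) made 17.5%, and in IM 3, Ighg1 (IgG1) made 15.3%. The libraries with less Igha differed from each other in the summed B cell marker level, at 109 CPM in IM 1 and 755 in IM 3. The 12 B cell markers summed to 65.4 to 76.1 CPM in CT, 23.7 to 755 in IM and 25.5 to 47.7 in IM-HYA. All of them were detected in at least 1 library. Whether the B cells of IM 3 set its segment profile was not tested. Rag1 and Rag2, which cut the DNA during segment joining, were at 0 in every library.

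The comparison of IM with CT addresses the cast under a normal diet. Of the 183 segments, 70 passed the filter on low counts and were tested, and they held 98.0% of the Ighv counts, while 47 others with a read did not pass. With the quasi-likelihood test of edgeR, adjusted by Benjamini-Hochberg over all 18414 genes tested, 0 of the 70 segments passed an adjusted p of 0.05, beside 0.00543% of all genes (1 gene). DESeq2 passed 2 segments, beside 0.353% of all genes. At an unadjusted p under 0.05 there were 11 segments, 7 higher and 4 lower in IM, which is 15.7% beside 7.94% of all genes (4.83% higher and 3.11% lower). For 8 segments the groups did not overlap, which is 11.4% beside 9.05% of all genes. The median log2 fold change of the 70 was −0.09 beside 0.04 for all genes, and their median standard error was 1.11 beside 0.37. A segment can pass the filter through the group where it is high, so these counts describe the tested segments only.

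The segments with the smallest p in IM against CT rested on few counts. Ighv1-84 had 0 counts in all 3 CT libraries and 132, 63 and 7 in IM 1 to IM 3. With counts pooled over each group, it was 50.9-fold higher in IM than a limit of 3 counts in CT. This pooled ratio leaves out the spread between libraries and the counting error in IM. The adjusted p of Ighv1-84 was 0.621 in edgeR and 0.000544 in DESeq2 (range over 20 alternatives 0.000544 to 0.856). Ighv2-6-8 went the other way, with 18, 20 and 9 counts in CT and 0 in all 3 IM libraries. By the same pooled ratio it was 20.7-fold lower (edgeR adjusted p = 0.621, DESeq2 0.0448, range over 20 alternatives 0.0448 to 0.920). Ighv4-1 had 1 count in CT and 28, 1 and 30 in IM 1 to IM 3, a ratio of 44.6 (95% counting interval 7.70 to 1792). Ighv1-36 had 27 counts in CT and 2 in IM, a ratio of 0.0560 (0.00646 to 0.223).

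The remaining segments of this rule were Ighv6-6 and Ighv5-9. Ighv6-6 had 2 counts in each CT library and 23, 5 and 11 in IM (log2 fold change 2.08, SE 0.75). Ighv5-9 had 40, 38 and 25 counts in CT and 37, 3 and 6 in IM (−1.99, SE 0.79). Neither passed (edgeR adjusted p = 0.621 for both). Among the leading segments, Ighv10-1 had a log2 fold change of 4.18 (SE 1.76, edgeR adjusted p = 0.621), Ighv1-26 of −1.37 (SE 0.60, edgeR adjusted p = 0.621) and Ighv3-6 of −2.21 (SE 1.04, edgeR adjusted p = 0.625). In all 3 the groups overlapped in CPM.

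The comparison of IM-HYA with IM addresses the HYA diet among mice with the cast. In edgeR 0 of the 70 segments passed, beside 0.0% of all genes, and in DESeq2 2 passed, beside 0.234% of all genes. At an unadjusted p under 0.05 there were 13, of which 10 were higher and 3 lower in IM-HYA, which is 18.6% beside 7.66% of all genes (1.27% higher and 6.39% lower). The groups did not overlap for 11 segments, 15.7% beside 9.72% of all genes. The median log2 fold change of the 70 was 1.10, with 52 above 0, beside −0.01 for all genes. A segment can pass the filter through IM-HYA alone, the group with the highest mean Ighv counts. The counts and the median therefore describe the tested segments only.

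Ighv1-39 and Ighv1-5 had the smallest p among segments higher in IM-HYA than in IM. Ighv1-39 had 73, 14 and 7 counts in IM and 319, 461 and 631 in IM-HYA, and its level went from 0.794 ± 0.718 to 10.3 ± 4.54 CPM (SD, n = 3), a log2 fold change of 3.65 (SE 0.80). Every IM-HYA library lay above every IM library. Its edgeR adjusted p was 0.604 and its DESeq2 adjusted p 0.00366 (range over 21 alternatives 0.00366 to 1.0). Without IM 1 edgeR gave an adjusted p of 0.0436, in a fit that called 871 genes, against 0 genes in the main fit. Ighv1-5 had 6, 7 and 6 counts in IM and 35, 79 and 145 in IM-HYA (3.20, SE 0.68, edgeR adjusted p = 0.604, DESeq2 0.0356, range over 20 alternatives 0.0356 to 1.0). Ighv6-6 had 161, 181 and 35 counts in IM-HYA (2.69, SE 0.66, edgeR adjusted p = 0.604).

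The 3 segments lower in IM-HYA by this rule did not pass (edgeR adjusted p = 0.604 for each). Ighv1-74 had 274, 28 and 22 counts in IM and 11, 28 and 14 in IM-HYA, a log2 fold change of −2.85 (SE 1.07). Ighv1-66 had 33, 15 and 44 counts in IM and 10, 19 and 6 in IM-HYA (−2.13, SE 0.91). Ighv1-78 had 122, 36 and 3 counts in IM and 10, 17 and 12 in IM-HYA (−2.28, SE 0.99), and its groups overlapped.

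The comparison of IM-HYA with CT differs in both diet and cast, and it shares its libraries with the comparisons above. In edgeR 0 of the 70 segments passed, beside 0.00543% of all genes, and in DESeq2 2 passed, beside 0.0815% of all genes. At an unadjusted p under 0.05 there were 14 of 70 segments, 13 higher and 1 lower in IM-HYA, beside 5.2% of all genes (2.31% higher and 2.89% lower). The groups did not overlap for 13 segments, 18.6% beside 22.2% of all genes. The median log2 fold change was 0.65, with 48 of 70 above 0, beside 0.01 for all genes. The same limit of the filter applies to these values.

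Ighv6-6 had the smallest p of any segment here, with 2 counts in each CT library against 161, 181 and 35 in IM-HYA. Its level was 0.0991 ± 0.0463 CPM in CT and 2.55 ± 1.49 in IM-HYA (SD, n = 3), a log2 fold change of 4.77 (SE 0.77). The unadjusted p was 7.83e-05 and the adjusted p 0.721 in edgeR, and DESeq2 gave an adjusted p of 0.00126 (range over 21 alternatives 0.00126 to 1.0). Ighv1-84 had 18, 51 and 20 counts in IM-HYA and 0 in CT. By the pooled ratio to a limit of 3 counts it was 15.6-fold higher (edgeR adjusted p = 0.854, DESeq2 0.0452, range over 21 alternatives 0.0452 to 1.0). Ighv1-5 had 10, 4 and 2 counts in CT (3.18, SE 0.69, edgeR adjusted p = 0.854).

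Ighv1-18, among the first 3 segments of 5 libraries, was higher in each IM-HYA library than in each CT library (log2 fold change 2.42, SE 0.76, edgeR adjusted p = 0.854). Among segments lower in IM-HYA than in CT, Ighv1-78 had 15, 48 and 56 counts in CT and 10, 17 and 12 in IM-HYA (−3.01, SE 1.01). Ighv5-9 (−1.52, SE 0.77) and Ighv2-6-8 (−2.19, SE 1.16) completed the 3, and none passed (edgeR adjusted p = 0.854 for each).

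Genes of antibody-producing cells, in the lists described next, gave no call by edgeR or by DESeq2. Of the 7 tested heavy chain constant genes, 0 passed in each comparison in edgeR, and the median log2 fold changes were 2.98 in IM against CT, −2.73 in IM-HYA against IM and −0.11 in IM-HYA against CT. At an unadjusted p under 0.05, 5 were higher in IM than CT, beside 4.83% of all genes, and 4 were lower in IM-HYA than IM, beside 6.39% of all genes. These medians are over genes and not over RNA. Igha, which held most of the constant counts, had log2 fold changes of −0.33 (SE 0.79), −0.69 (SE 0.80) and −1.02 (SE 0.80) in the same order. The summed level of the constant genes overlapped between the groups. It was 903, 3583 and 5826 CPM in CT, 868, 3959 and 4563 in IM, and 953, 3358 and 853 in IM-HYA. The libraries at 953 CPM or less were CT 1, IM 1, IM-HYA 1 and IM-HYA 3. They were also the libraries with Hoxd13 at 96.0 CPM or more, and this link was not tested. The 12 plasma cell genes had medians of −0.24, −0.13 and −0.56 in the same order, and 0 passed. At an unadjusted p under 0.05, 1 was higher and 2 lower in IM than CT, and 2 were lower in each of the other comparisons, beside 3.11%, 6.39% and 2.89% of all genes lower. Jchain, which joins IgA units into dimers, measured 181, 292 and 1036 CPM in CT, 124, 417 and 189 in IM, and 167, 483 and 172 in IM-HYA. The 12 B cell markers had medians of 1.88, −2.81 and −0.81, beside the levels of IM 3 given above. At an unadjusted p under 0.05, 3 of them were higher in IM than CT, beside 4.83% of all genes, and 10 were lower in IM-HYA than IM, beside 6.39% of all genes. Of the 10 genes of V(D)J recombination, 7 were tested and 0 passed, with medians of −0.04, 0.24 and 0.25 and 0 at an unadjusted p under 0.05. Of the 8 class switch and hypermutation genes, 7 were tested and 0 passed, with medians of 0.28, 0.11 and 0.30 and 1 at an unadjusted p under 0.05, higher in IM-HYA than CT, beside 2.31% of all genes.

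T cell and adipocyte markers stood beside the B cell markers. The 8 T cell markers had medians of 2.80, −3.09 and −0.11. At an unadjusted p under 0.05, 6 were higher in IM than CT, beside 4.83% of all genes. By the same threshold 8 were lower in IM-HYA than IM, beside 6.39% of all genes. The T cell markers summed to 186 CPM in IM 3 and at most 23.3 elsewhere. The 8 adipocyte markers had medians of 2.82, −2.65 and −0.03. By that threshold 7 were higher in IM than CT and 7 lower in IM-HYA than IM, beside the same 4.83% and 6.39% of all genes. The adipocyte markers summed to 3067 CPM in IM 3, 604 in IM 1 and at most 249.6 elsewhere. In edgeR 0 of either list passed in any comparison. DESeq2 passed 2 T cell and 4 adipocyte markers in IM against CT, beside 0.353% of all genes. In IM-HYA against IM it passed 1 and 3, beside 0.234% of all genes. The part of these markers in the Ighv results was not tested.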

How the data were processed

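Bulk RNA-seq of 9 mouse colon libraries was analysed. The submitters' processing notes name HISAT2 2.1.0, StringTie 2.1.3b, Trimmomatic, bcl2fastq 2.20.0 and the build GRCm38 (mm10). The sources used here do not give the strand setting, the annotation release or the handling of reads shared by several segments. The authors deposited whole-number counts per gene, which were the main input. The authors also deposited FPKM values, scaled by gene length and library total, and TPM values, scaled to a common sum per library. These entered alternatives only. Unused per-sample columns numbered 0. RNA of joined, hypermutated segments was aligned to an unrearranged genome, and what this loses was not tested.

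Gene identifiers were matched to the RefSeq table of GRCm38.p6 (45679 of 45777, 98 not). All 183 Ighv rows matched it and GENCODE M21. Genes were tested with edgeR 4.0.16 (R 4.3.3) by the quasi-likelihood test, TMM scaling and filterByExpr by group (minimum count 10, minimum total 15), with 9 libraries in 1 fit and Benjamini-Hochberg adjustment over 18414 of 27860 genes with a read, at a threshold of 0.05. The estimated common coefficient of biological variation was 0.469. The steps were tested on simulated counts, with the changed genes drawn from all genes tested. Over the comparisons they recovered 1.49% to 7.46% of 2-fold, 46.3% to 47.8% of 4-fold and 62.1% to 66.7% of 8-fold changes. These rates are for all genes and were not measured for the segments apart. The median standard error of the tested segments was 1.05 to 1.11 over the comparisons, beside 0.37 for all genes. A segment that did not pass may therefore still have changed. CPM uses TMM-scaled library sizes, and segment shares use raw counts. Share intervals are 95% Clopper-Pearson. A count of 0 allows up to 3 counts. Thinning used 100 random draws. DESeq2 1.42.0 and limma 3.58.1 gave alternatives. V exons were aligned with edlib 1.3.9.post1.

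Segments were named by rule: the 3 largest shares per library, the 6 largest mean shares, any call or else the 3 smallest p per direction in each comparison, and the 3 largest ratios of highest to median share among segments with a mean share of at least 1%. The rule named 24. Segments named in the sequence comparisons beside these were chosen after their values were seen. The members and lists were chosen with earlier results of these data known. Segments Ighv1-23, Ighv1-24, Ighv1-28 and Ighv1-57 overlap other annotated genes, and their reads cannot be told apart without the strand setting.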

Additional observations from a re-analysis of the deposited data

How the results depend on the processing

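DESeq2 called 65, 43 and 15 genes in IM against CT, IM-HYA against IM and IM-HYA against CT, and 2 Ighv segments in each: Ighv1-84 and Ighv2-6-8, Ighv1-39 and Ighv1-5, and Ighv1-84 and Ighv6-6. limma on log2(FPKM + 0.1) called 2, 1 and 3 genes, with 1 (Ighv1-84), 0 and 1 (Ighv6-6) segments. limma on log2(FPKM + 1) called 1 gene in IM-HYA against IM and 7 in IM-HYA against CT, 2 of them segments (Ighv1-5 and Ighv6-6), and without a filter 0 genes in IM against CT and 0 in IM-HYA against CT. limma-voom with sample weights called 1 gene in IM-HYA against IM. Leaving out both CT 2 and IM 3, chosen after seeing the data, gave 0 genes in IM against CT, 1 in IM-HYA against IM and 0 segments. Leaving out 1 library gave 1 to 2 genes in IM against CT and in IM-HYA against CT, with 0 segments, and 0 to 871 genes with 0 to 2 segments in IM-HYA against IM. The 871 genes and the 2 segments (Ighv1-39 and Ighv3-1) came without IM 1, and 1 gene without IM 2. The 2 genes came without CT 1 or IM 2 in IM against CT, and without CT 1 in IM-HYA against CT. The causes were not tested. Over 364 alternative values for 18 named segment comparisons, 0 reversed and 11 passed. The 18 were picked by their small p in the main fit and refitted on the same libraries. The lack of reversals is therefore not separate support for their directions.

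Merging segments at least 97% identical gave 7 segments for 50% of the counts in IM and a largest share of 12.4% in CT. Thinning left 28.7 segments with at least 10 counts in CT and 22.6 in IM-HYA, against 40.0 and 63.0 at full depth. As TPM the summed level was 270, 478 and 934 in CT, IM and IM-HYA. Per 100 constant by FPKM, a setting chosen after seeing the data, it was 10.2, 24.5 and 40.0. FPKM and TPM divide by gene length, so their size differs from that of counts by construction. Gene length is the same in every library. TPM also leaves out the TMM factors. So do the shares of all counts, with means of 0.00582% in CT, 0.00936% in IM and 0.0180% in IM-HYA. What sets the differences between these measures was not tested.

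Leaving out 1 library moved the group means for CT, IM and IM-HYA as follows. Segments for 50% of counts ran from 10 to 12.5, 8.5 to 10 and 8 to 10. The largest share ran from 9.73% to 11.2%, 11.8% to 15.1% and 9.99% to 13.2%. The Ighv1 share ran from 62.8% to 66.3%, 60.4% to 73.9% and 63.3% to 66.6%. Segments with at least 10 counts ran from 34.5 to 44.5, 30 to 53 and 59.5 to 67. The summed level ran from 57.9 to 118, 50.8 to 101 and 103 to 181 CPM. Ighv per 100 constant counts ran from 1.97 to 3.11, 1.21 to 8.92 and 9.26 to 11.4, and the low IM value came without IM 1.

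Libraries of different groups were correlated over the tested genes by their deviations from their group means in log2 CPM. These deviations correlated over 0.1 in 5 of 9 same-numbered pairs (median 0.21, range −0.27 to 0.36). They did so in 6 of 18 differently numbered pairs (median −0.06). The 3 pairs of number 1 lay at 0.25 to 0.31, but IM 1 correlated best with IM-HYA 3 (0.35), so the libraries were not treated as paired. With the replicate block, 1, 0 and 1 genes and 0, 0 and 0 segments were called.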
